A study of Oncorhynchus mykiss with 28 samples.

Results

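The clones described here were those whose signal in rainbow trout eggs obtained after photoperiod manipulation differed most from both other kinds of spawning. Among 7865 cDNA clones that had a value above 0 on all 28 arrays and were not listed in the study's tables of differential transcripts, the 75 with the largest excess of the PM mean over whichever of the N and HI means was closer to it, and the 75 with the largest deficit, were retained. They thus number 150 of 9023 clone rows in the whole series. The values that chose them were the group means, so the differences between PM and the 2 other groups are given as a description and were not tested. Egg quality was not used in the choice. A female far from the rest of her group still moved its mean, so positions within a group are not fully independent of the choice.

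Each sample was the RNA of unfertilized eggs of 1 female of an autumn-spawning strain, hybridized on 1 nylon cDNA array. The 4 N females ovulated naturally in 2003 under natural light, with neither hormone nor light treatment. The 14 PM females, also from 2003, had been kept under an artificial light regime that advanced ovulation, and the 10 HI females ovulated in 2004 after injection of a GnRH analog. Because every HI array came from 2004 and every N and PM array from 2003, the year and the hormone cannot be told apart, whereas PM and N shared the year. Egg quality was scored as the normal alevins present once the yolk sac was resorbed, in percent of the eggs at the start. By the paper's methods this score takes in both survival and malformation. It ran from 95.9 to 98.8 in N, from 2 to 95.4 in HI (mean 58.48) and from 0 to 93.8 in PM (mean 44.25). The PM and N groups thus also differed in egg quality, and light regime and egg quality cannot be told apart between them. HI differed from PM in hormone, year and mean egg quality as well, so the contrast with HI does not separate them either. By the paper's methods, PM females were isolated in light-proofed tanks after an earlier spawning. N and HI females were moved to recirculated water before ovulation. Housing and season of spawning therefore cannot be told apart from the light regime.

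The unfertilized egg of a fish carries a store of messenger RNA laid down during oogenesis, and the early embryo is built from it until its own genome is transcribed. No new transcription feeds this store once the egg is ovulated, so what an array reads in the egg is what the mother deposited, less what was degraded. In trout the seasonal change of daylength sets the date of spawning, and shifting it artificially moves ovulation out of season, a common practice in fish farming. The 150 clones are named by their identifiers only: no gene name and no insert sequence was used for them here, so no function is given to any of them and markers of the oocyte or of other cell types could not be read.

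A pair of samples stood apart by their labels. N 1 and PM 4 carried the same female number, and they also stood apart in the values, as described below. Overlap between groups, minimum differences and some slopes within PM are therefore also given without these 2 samples. Most other results include them. The width of the signal distribution, as the interquartile range of deposited log2 signal, was 1.54 ± 0.17 in N (SD, n = 4), 1.46 ± 0.07 in HI (SD, n = 10) and 1.61 ± 0.10 in PM (SD, n = 14). It was 1.75 in N 1, the widest of N, and 1.46 in PM 4, among the narrowest of PM. Quantile normalization gave all arrays 1 distribution before any value below was computed. Each array held 8146 to 8655 clone values above 0.

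The differences that set PM apart were small. In the 75 clones higher in PM eggs the smaller of the PM-N and PM-HI differences ran from 0.26 to 0.57 on the log2 scale, with a median of 0.31, and the leading clone reached 1.49-fold. In the 75 clones lower in PM eggs it ran from 0.28 to 0.55, again with a median of 0.31. The median HI-N difference was -0.01 in the higher list and -0.00 in the lower list, against -0.01 over all clones. Its quartiles were -0.07 and 0.06 in the higher list and -0.05 and 0.07 in the lower list. Over all clones they were -0.11 and 0.09. The choice used both means, so nothing is read from this. Single members still differed by up to 0.41 between HI and N in the higher list and by up to 0.30 in the lower list.

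Neither list ended at a step. On the higher side the last members, 1RT75N14_D_G07 at 0.264 and tcac0002.i.21 at 0.264, were followed outside the limit by tcbk0049.o.15 at 0.263 and 1RT162B15_B_A08 at 0.262. On the lower side 1RT117I19_A_E10 at 0.278 and tcbk0048.n.11 at 0.276 were followed by tcbk0048.g.16 at 0.276 and 1RT121I06_C_E03 at 0.273. Clones of the study's tables would have taken 3 places in the higher list and 7 places in the lower list.

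No member separated PM from the other females completely. None of the 75 higher clones had all 14 PM arrays above the 14 others, and none of the 75 lower clones had them all below; over all 7915 clones the share was 0% in both directions. PM and HI alone also overlapped for every member. When N 1 and PM 4 were set aside, 1 of the 75 higher clones and 0 of the 75 lower clones separated the groups, against 0.0253% and 0% of all clones. The choice used this contrast, so nothing is read from these shares.

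The 1 member that separated the groups without that pair was tcay0025.m.13. Its log2 signal was 2.09, 1.36, 1.77 and 1.54 in the 4 N females, 1.31 to 1.78 in HI with a median of 1.59, and 1.68 to 2.52 in PM with a median of 2.09. The lowest PM value was PM 4, and the next lowest was 1.93. The sample labelled PM 4 lay among the HI females and the sample labelled N 1 lay at the PM median, while 13 of 14 PM females were above every HI female. The clone was singled out here by setting these 2 samples aside. An overlap through at least 1 of them follows from that choice, so nothing is read from it about their labels. The group means were 1.69 ± 0.31 (N), 1.57 ± 0.13 (HI) and 2.10 ± 0.20 (PM) (SD, n = 4, 10 and 14).

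The leading higher clone by size, tcbk0011.g.07, was far more dispersed. It read -1.72, -1.76, -0.38 and 0.01 in N, -2.02 to -0.13 in HI (median -0.85) and -1.42 to 0.32 in PM (median -0.34). Only 6 of 14 PM females exceeded all HI females, and 3 lay below the HI median. In tcac0003.c.03 the N females read 1.86, 1.18, 1.47 and 0.65, the HI females 0.93 to 1.83 (median 1.28) and the PM females 1.23 to 2.40 (median 1.91). Here 9 PM females were above all HI females, N 1 was again the highest N female and PM 4 the lowest PM female.

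Overlap of the same kind was seen in the next leading clones. For tcay0009.g.09 all 14 PM females lay above the HI median of -0.69, with PM values from -0.62 to 0.87 (median 0.52) and HI values up to 0.43. The 4 N females read 0.21, -0.69, 0.14 and -0.41. For 1RT128A17_A_A09 the N values of 1.56, 0.21, 1.39 and 0.99 overlapped most of the PM values, 0.76 to 1.86 with a median of 1.48. HI lay lower for this clone, at 0.51 to 1.35 with a median of 0.90. For tcab0003.j.13, N 1 at 0.35 stood above the other N females (-0.35, -0.48 and -0.88), whereas PM 4 at -0.37 stood near the bottom of a PM range of -0.46 to 0.66 (median 0.28). The HI females of this clone ran from -0.75 to 0.19 with a median of -0.18.

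Among the clones lower in PM eggs, 1RT71P07_B_H04 had the largest difference. Its signal was 2.55, 3.36, 2.64 and 3.00 in N, 2.61 to 3.48 in HI (median 3.01) and 1.95 to 2.96 in PM (median 2.29). N 1 was the lowest N female and PM 4 the highest PM female, and 12 of 14 PM females were below every HI female. The means were 2.88 ± 0.37, 3.04 ± 0.29 and 2.33 ± 0.29 in N, HI and PM (SD, n = 4, 10 and 14). These were also bright clones: 1RT71P07_B_H04, 1RT117O05_A_H03, 1RT45K02_C_F01 and 1RT53K16_C_F08 all had HI means above 2 on a scale where the median clone of an array reads near 0.

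The second of them, 1RT117O05_A_H03, read 2.52, 3.47, 2.77 and 2.94 in N, 2.36 to 3.06 in HI (median 2.87) and 1.40 to 3.08 in PM (median 2.27). A single PM female, PM 7, gave the highest PM value and lay above all HI females. In 1RT53K16_C_F08 the N females read 1.73, 3.06, 2.24 and 2.21, HI ran from 2.19 to 2.98 (median 2.53) and PM from 1.14 to 2.61 (median 1.88). PM 4 again gave the highest PM value and N 1 the lowest N value, and 11 of 14 PM females were below every HI female. For tcav0001.n.01 the N females fell into a low pair (0.92 in N 1 and 1.13 in N 3) and a high pair (2.44 and 2.24), while PM ran from 0.65 to 1.76 (median 1.17) and HI from 1.29 to 2.52 (median 1.83).

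The other leading lower clones were closer between groups or rested on fewer females. In 1RT45K02_C_F01 the PM range of 0.38 to 2.56 (median 1.90) owed its lower end to PM 2, and HI ran from 1.89 to 2.57 (median 2.46). The 4 N females of this clone read 2.29, 2.69, 2.42 and 2.06. In 1RT4G4 the N females read 1.99, 1.71, 0.97 and 1.24, HI ran from 0.88 to 1.99 (median 1.32) and PM from 0.17 to 1.67 (median 0.98), with 5 PM females below all HI females. In tcbk0027.a.17, N 1 at -1.20 was below the other N females (0.47, -0.35 and -0.34) and inside the PM range of -1.30 to -0.33 (median -0.94), HI lying at -0.91 to 0.07 (median -0.50).

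**Figure D1:**
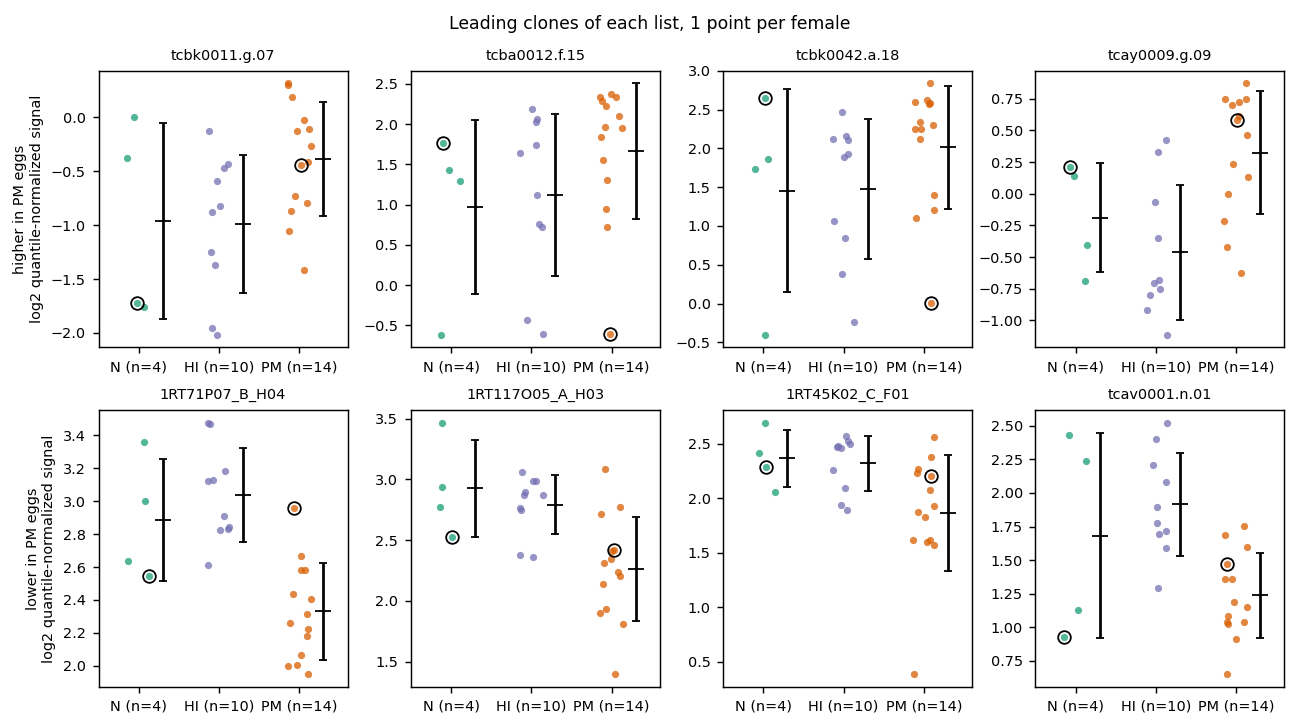
Log2 quantile-normalized signal (vertical axis) of the 4 leading clones higher in PM eggs (top) and the 4 leading clones lower in PM eggs (bottom), 1 point per female, in N (n = 4), HI (n = 10) and PM (n = 14). Bars give the group mean ± SD, and black circles mark N 1 and PM 4, the samples with the same female number. The groups overlapped in every panel; in 1RT71P07_B_H04 the PM mean was 2.33 against 3.04 in HI, and PM 4 at 2.96 was the highest PM value.

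Members varied more between females than most clones on the array. The SD over PM females had a median of 0.27 in the higher list and 0.31 in the lower list, against 0.21 over all 7915 clones, and 62 of 75 and 71 of 75 members exceeded that all-clone median. The same held in the groups where the members were not extreme: within HI the medians were 0.25 and 0.29 against 0.21, and within N 0.32 and 0.39 against 0.21. The PM SD exceeded the HI SD in 42 of 75 higher and 39 of 75 lower members, compared with 46.9% of all clones. The wider spread was therefore present in all 3 groups. Picking clones by the size of differences between group means tends to favour clones with a wide spread. Nothing particular to the members is therefore read from it.

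The most dispersed member of the higher list was tcba0012.f.15, with an SD of 0.84 in PM, followed by tcbk0044.j.15, also 0.84. For tcbk0044.j.15, PM 4 gave the highest PM value, 3.01, and PM 1 the lowest, 0.60 (median 2.18). Its N females read 0.67, 0.95, 0.87 and 2.29, and its HI females 0.55 to 2.38 (median 1.95). By identifier, tcba0012.f.16 neighbours tcba0012.f.15 on the clone plate, yet it had one of the smallest SDs of the list, 0.15. Its PM values ran from -0.24 in PM 4 to 0.21 (median 0.09), its HI values from -0.45 to -0.06 (median -0.23), and its N values were 0.12, -0.57, -0.12 and -0.39. The smallest SD, 0.14, was that of tcay0022.i.20, which read 0.04 to 0.52 in PM (median 0.32), -0.32 to 0.38 in HI (median 0.07) and 0.23, -0.05, -0.09 and 0.02 in N.

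In the lower list the most dispersed members were 1RT45K02_C_F01 (SD 0.53 in PM) and tcbk0026.o.20 (0.50), the latter ranging from -1.45 to 0.51 in PM with a median of -0.97. The N females of tcbk0026.o.20 read -1.04, -0.81, -0.12 and -0.08, and its HI females -0.78 to -0.01 (median -0.41). The tightest were tcbk0031.f.23 and tcay0018.g.10, both with an SD of 0.12. In tcay0018.g.10 the PM females ran from -1.75 to -1.33 (median -1.51), the HI females from -1.41 to -0.95 (median -1.19) and the N females read -1.51, -0.92, -1.23 and -0.75. The low N value was N 1, which sat at the PM median, and 11 of 14 PM females were below every HI female. In tcbk0031.f.23 the PM range was -2.12 to -1.78 (median -1.93), and all 14 PM females were below the HI median of -1.66. The HI range of this clone was -2.0 to -1.17, and the N females read -1.68, -1.38, -1.79 and -1.80.

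The members of a list deviated together. Taking the deviation of each clone from its group mean, the median correlation over 28 arrays between 2 clones of the higher list was 0.244, with 81.7% of pairs positive, and between 2 clones of the lower list 0.184, with 74.4% positive. Over all clones the median was -0.00 and 49.3% were positive. Within the 14 PM females alone, a clone of one list and a clone of the other had a median correlation of -0.20, and 25% of such pairs were positive. The clones share the same arrays, so these values describe the lists and carry no test, and counts of members given here are not counts of independent measurements.

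The tightest group was formed by 3 clones of the higher list, chosen after their values were seen: tcba0012.f.15, tcbk0042.a.18 and 1RT55B06_D_A03 correlated at 0.962 to 0.974 over the 28 females after removal of group means. In tcbk0042.a.18 the N females read 2.64, 1.73, -0.40 and 1.86, the HI females -0.24 to 2.47 (median 1.91) and the PM females 0.01 to 2.84 (median 2.28). In tcba0012.f.15 the N females read 1.76, 1.30, -0.62 and 1.43, the HI females -0.60 to 2.18 (median 1.38) and the PM females -0.60 to 2.37 (median 1.96). N 3 and PM 4 were the lowest females of N and PM for both, and HI 10 and HI 4 the lowest of HI, so each group held 1 or 2 females far below the rest. The place of tcbk0042.a.18 and 1RT55B06_D_A03 in the list rested on N 3: without that female their minimum differences were -0.06 and -0.09. That of tcba0012.f.15 was then 0.17 in place of 0.55, under the smallest value of the list with all arrays, 0.26. Without N 1 and PM 4, in contrast, that of tcba0012.f.15 was 0.72.

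**Figure D2:**
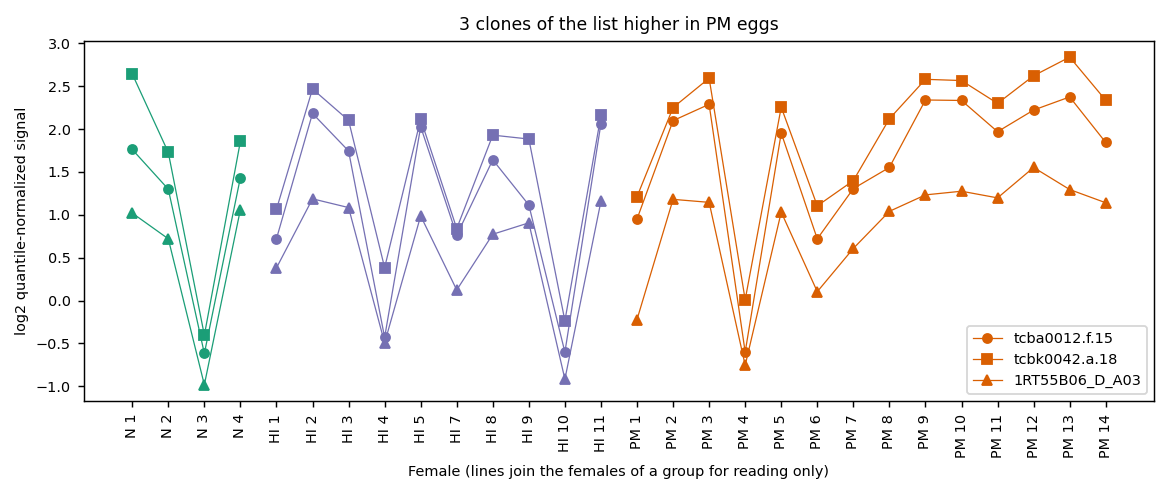
Log2 quantile-normalized signal (vertical axis) of tcba0012.f.15, tcbk0042.a.18 and 1RT55B06_D_A03 in each of the 28 females (horizontal axis), coloured by group; the lines only join females of a group. The 3 clones moved together, with low values in N 3, HI 4, HI 10 and PM 4 (tcba0012.f.15 read -0.62, -0.43, -0.60 and -0.60 there).

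The lower list held several such pairs, also picked after their values were seen. 1RT117O05_A_H03 and 1RT107A19_A_A10 correlated at 0.947, and 1RT4G4 and tcac0004.h.24 at 0.943. On plate 1RT70, 1RT70F23_B_C12 and 1RT70E18_C_C09 correlated at 0.912, and 1RT70C12_C_B06 and 1RT70E18_C_C09 at 0.861. This plate gave 5 of the 75 lower clones out of 16 of its clones measured, the most of any plate in either list. Whether such clones carry the same transcript, or share a property of their spots, was not tested.

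The 2 lists also differed in where their clones came from. Identifiers beginning with 1RT made up 21.3% of the higher list (16 of 75) and 60% of the lower list (45 of 75), against 36.2% of the 7915 clones. The remaining 59 higher and 30 lower clones had identifiers beginning with tc. The higher clones were spread over 61 plates, with at most 3 on 1 plate, and the lower clones over 58. In mean log2 signal over the groups the lists were ordinary: medians of 0.05 and 0.21 against -0.09 for all clones, with ranges of -1.76 to 2.95 and -2.16 to 4.31.

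The position of each female was summarised as the median over the 75 clones of her deviation from the mean of the 3 group means. For the higher list this was 0.24 ± 0.15 in PM (SD, n = 14) and -0.12 ± 0.11 in HI (SD, n = 10), while the N females read 0.26, -0.31, -0.03 and -0.25. The PM values ran from -0.04 in PM 4 and 0.00 in PM 14 up to 0.41 in PM 2. HI 8, at 0.08, was the only HI female above 0. On this list N 1 therefore lay among the PM females and PM 4 within the range of the HI and N females, against their labels. PM 14 lay within the HI range too, since HI 8 read higher. In the labels N 1 had 95.9% normal alevins, above every PM female (at most 93.8%), and PM 4 had 5%, below every N female. Egg quality is itself part of those labels, so it gives no separate check of them. Exchanged samples and a female sampled for both groups cannot be told apart from the labels.

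For the lower list the medians were -0.25 ± 0.15 in PM (SD, n = 14) and 0.12 ± 0.05 in HI (SD, n = 10), and the N females read -0.19, 0.40, -0.02 and 0.27. The HI females were all above 0, from 0.06 to 0.24, and the PM females all below, from -0.49 in PM 5 to -0.03 in PM 12. PM 4, at -0.11, was near the upper end of PM but below every HI female, and N 1 was the lowest N female. Clones were also counted by the nearest of the 3 group means, taken without the female herself. By this count N 1 was nearest to the PM mean in 60 of 75 higher and 50 of 75 lower clones. The other N females were so in 2 to 18 and 6 to 30. Leaving a female out moves the mean of the few N females away from her, so the N counts tend to be raised. PM 4 was nearest to the PM mean in 25 and 36 clones, the other PM females in 26 to 71 and 32 to 71. The wide signal distribution of N 1 and the narrow one of PM 4, given above, moved with these placements. Other arrays did so too. The width was 1.75, 1.39, 1.60 and 1.42 in N 1 to N 4, and wider N arrays read farther to the PM side on both lists. PM 3 and PM 5, the widest of PM at 1.77 and 1.76, read 0.40 and 0.40 on the higher and -0.45 and -0.49 on the lower list. In HI, by contrast, the widest array, HI 4 at 1.57, read lowest on the higher list (-0.26). The part of array width in these placements was not tested. Over members kept as chosen, setting N 1 and PM 4 aside raised the median minimum difference from 0.31 to 0.35 in the higher list and from 0.31 to 0.34 in the lower list.

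**Figure D3:**
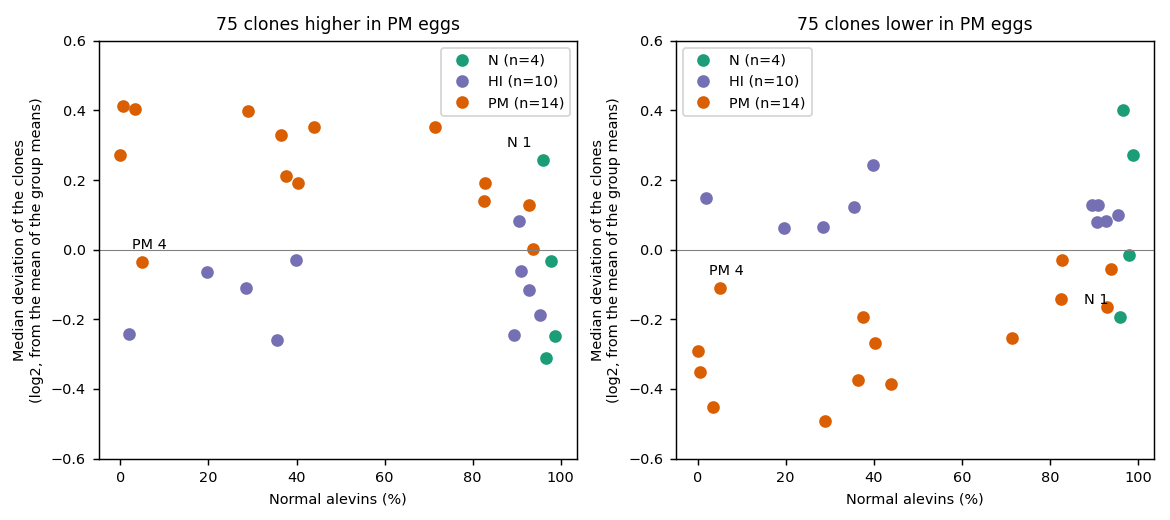
Median deviation of the 75 clones higher in PM eggs (left) and of the 75 clones lower in PM eggs (right), on the log2 scale from the mean of the 3 group means, against the percentage of normal alevins of each female, in N (n = 4), HI (n = 10) and PM (n = 14). N 1 and PM 4, which carry the same female number, are marked. The PM female farthest from 0 was PM 2 in the higher list (0.41) and PM 5 in the lower list (-0.49), while PM 4, of poor egg quality, read -0.04 and -0.11 and PM 14, of the best in PM, 0.00 and -0.06.

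These placements partly reflect the choice itself, since every array entered the means. Each array was therefore left out in turn, the 150 clones were chosen again from the other 27 arrays, and the left-out array was read on them. The left-out PM females were above 0 for the higher clones in 12 of 14 cases, with a mean of 0.18 ± 0.15 and a range of -0.10 (PM 4) to 0.40 (PM 2), and below 0 for the lower clones in 11 of 14 cases, with a mean of -0.16 ± 0.18 and a range of -0.43 to 0.18 (SD, n = 14). The left-out HI females were below 0 for the higher clones in 9 of 10 cases and above 0 for the lower clones in 9 of 10. PM 11, PM 12 and PM 14 read 0.09, 0.18 and 0.02 on the lower clones, on the side of the HI females. The 0 of these readings is the mean of the group means that chose the clones. It is therefore no neutral reference, and the counts carry no test.

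The N females gave no single side. Left out, N 1 read 0.33 on the higher and -0.46 on the lower clones, the most extreme value of the lower list in any group. With all arrays included she read 0.26 and -0.19. Leaving out 1 of 4 N females moves the N mean away from her, so clones on which she reads toward PM enter more easily. Every N female read farther to the PM side on both lists when left out, so these values give no unbiased check of her place. The 3 others read -0.19, 0.05 and -0.10 on the higher clones and 0.10, -0.19 and 0.10 on the lower clones. The lists themselves changed most when an N female was left out: 52 to 71 of the 75 higher and 44 to 72 of the 75 lower clones were chosen again, with the fewest without N 4 for the higher list and without N 1 or N 2 for the lower list.

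**Figure D4:**
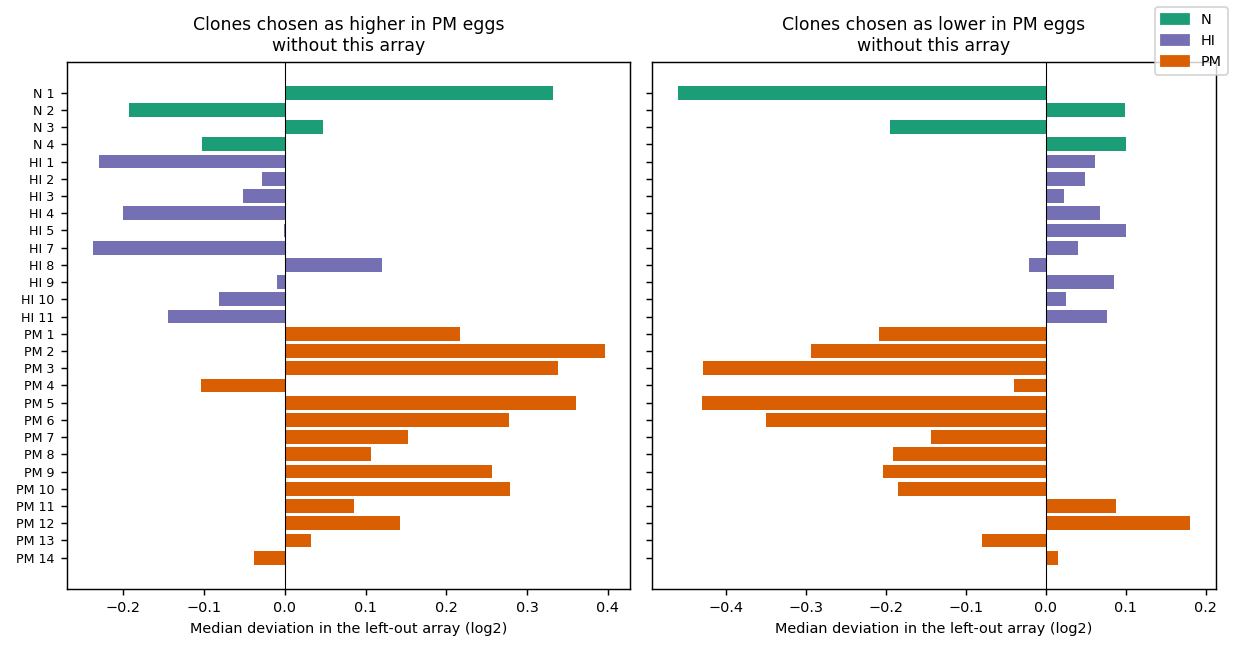
Median deviation (log2, horizontal axis) of each array on clones chosen without it, for clones chosen as higher in PM eggs (left) and as lower in PM eggs (right); 1 bar per female, coloured by group. Of the 14 PM bars, 12 pointed right on the left panel and 11 pointed left on the right panel, and N 1 pointed with them (0.33 and -0.46). Every N female read farther to the PM side left out than included.

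Within the PM group, the relation to egg quality was fitted with limma as the change in log2 signal per 10 percentage points of normal alevins, over all 7915 clones and Benjamini-Hochberg adjustment. No member passed an adjusted p of 0.05 (0 of 150), nor did any clone of the array (0%). The lowest adjusted p was 0.164 for the members of either list and for all clones alike. At an unadjusted p under 0.05 there were 582 clones with a positive slope (7.35%) and 517 with a negative slope (6.53%). The SAM-style statistic called 3 clones at a rate of 5%, none of them a member.

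The signs of the slopes nevertheless were unequal between the lists. In the higher list 57 of 75 clones had a negative slope and 18 a positive slope. The median of that list was -0.0148 ± 0.0127 per 10 points (n = 14 PM females, jackknife error over all 28 arrays). In the lower list 57 had a positive slope and 18 a negative slope, with a median of 0.0251 ± 0.0134 (same n and error). Over all clones 47.8% of slopes were positive and the median was -0.0013. At an unadjusted p under 0.05 the higher list held 14 negative and 3 positive slopes (18.7% and 4% of its clones), and the lower list 17 positive and no negative slopes (22.7% and 0%). These signs mean that most members lay farther out in PM females with few normal alevins and closer to the HI and N levels in PM females with many. The medians were within 2 of their errors of 0, and no single clone passed the adjusted threshold. A PM female far from the others can both bring a clone into a list and set its slope. The signs are therefore not fully independent of the choice.

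These counts moved with the arrays and clones included. The shares over all clones were not computed for the alternatives below, so whether these counts are particular to the lists cannot be read. Without N 1 and PM 4, 65 of 75 higher clones had a negative slope and 23 did so at an unadjusted p under 0.05, with a median of -0.0245. In the lower list 60 were positive, 25 of them at that p, with a median of 0.0340. With the width of each array's distribution added to the fit, on the other hand, 46 higher clones were negative (10 at that p, median -0.0066) and 53 lower clones were positive (9 at that p, median 0.0159). When only clones brighter than the array median were kept, 39 higher and 43 lower members were left, of which 25 were negative and 27 positive, 5 in each list at that p.

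The member with the lowest p was tcbk0006.c.09 of the higher list, whose slope within PM was -0.054 ± 0.013 per 10 points (SE, n = 14; limma, unadjusted p = 4.38e-04, adjusted p = 0.164). Its PM signal ran from 0.39 in PM 2 to -0.37 in PM 13, with a median of 0.05. PM 1 to PM 7, with at most 37.5% normal alevins, all read above 0, and PM 11 to PM 14, with 82.5 to 93.8%, all read below 0. The N females read 0.01, -0.40, 0.05 and -0.56, and the HI females -0.78 to 0.09 (median -0.26).

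Of the next negative slopes, tcay0025.i.19 had a slope of -0.064 ± 0.019 (SE, n = 14; limma, unadjusted p = 0.00357, adjusted p = 0.188), its PM values running from -1.25 in PM 14 to -0.11 in PM 7 with a median of -0.50. The 4 PM females of best quality, PM 11 to PM 14, gave the 4 lowest values. Its N females read -0.72, -1.16, -0.84 and -1.0, and its HI females -1.29 to -0.46 (median -0.84). For tcbk0058.l.01 the slope was -0.071 ± 0.020 (SE, n = 14; limma, unadjusted p = 0.00217, adjusted p = 0.175), with PM values from -0.52 to 0.82 (median 0.30). Its N females read 0.20, -0.77, 0.10 and 0.13 and its HI females -0.60 to 0.79 (median -0.11), so that HI alone covered nearly the whole PM range.

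Of the 18 positive slopes of the higher list, the 3 at an unadjusted p under 0.05 were those of the clones that vary together. They were 0.111 ± 0.050 for tcba0012.f.15, 0.121 ± 0.045 for tcbk0042.a.18 and 0.110 ± 0.037 for 1RT55B06_D_A03 (SE, n = 14; limma, adjusted p = 0.328, 0.237 and 0.216). Female PM 4, of poor egg quality, was the lowest for all 3. Without N 1 and PM 4 the slopes were 0.056, 0.076 and 0.075 (limma, adjusted p = 0.473, 0.319 and 0.258), still opposite in sign to most of the list.

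In the lower list the lowest p belonged to 1RT48O06_C_H03, with a slope of 0.066 ± 0.016 (SE, n = 14; limma, unadjusted p = 7.68e-04, adjusted p = 0.164). It ran from -0.28 in PM 2 to 0.80 in PM 14 (median 0.40), against 0.70, 0.80, 0.42 and 0.86 in N and -0.13 to 1.37 in HI (median 0.58). PM 14, of the best egg quality, thus stood at the N level. For 1RT39A05_A_A03 the slope was 0.073 ± 0.019 (SE, n = 14; limma, unadjusted p = 0.00121, adjusted p = 0.164). PM 1 to PM 8, with at most 40.3% normal alevins, read -1.55 to -1.14, and PM 9 to PM 14 read -1.05 to -0.56, against -1.11, -0.28, -0.85 and -0.74 in N and -1.09 to -0.51 in HI (median -0.73). For 1RT2H1 the slope was 0.046 ± 0.013 (SE, n = 14; limma, unadjusted p = 0.00195, adjusted p = 0.171), with PM values from -0.77 to -0.04 (median -0.47), HI values from -0.42 to 0.47 (median -0.24) and N values of -0.40, -0.16, -0.00 and 0.19.

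Few lower clones had a clearly negative slope. The 3 with the lowest p were tcbk0034.p.09 (-0.031, unadjusted p = 0.159), 1RT126F02_D_C01 (-0.026, unadjusted p = 0.198) and 1RT53K16_C_F08 (-0.030, unadjusted p = 0.247), all by limma in 14 PM females. PM 4 was the highest PM female in each of them, at 1.81, 1.93 and 2.61. For tcbk0034.p.09 the PM median was 1.16, the HI range 1.33 to 1.97 and the N values 1.11, 1.73, 1.91 and 1.22. For 1RT126F02_D_C01 the PM median was 1.26, the HI range 1.58 to 2.50 and the N values 1.04, 2.20, 1.44 and 1.80.

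The 8 leading clones of each list by group difference were mixed in their relation to egg quality within PM. An unadjusted p under 0.05 was found for tcay0009.g.09 (slope -0.078 ± 0.028) and 1RT128A17_A_A09 (-0.055 ± 0.021) (SE, n = 14; limma, adjusted p = 0.226 and 0.245). The same held for tcba0012.f.15, tcbk0042.a.18 and, in the lower list, 1RT39A05_A_A03, whose slopes are given above. The other leading clones did not reach that p, among them the following. Within PM the slope was -0.041 ± 0.035 for tcbk0011.g.07, -0.028 ± 0.021 for tcac0003.c.03 and -0.001 ± 0.016 for tcay0025.m.13 (SE, n = 14; limma, adjusted p = 0.619, 0.583 and 0.990). On the lower side it was -0.013 ± 0.021 for 1RT71P07_B_H04 and 0.019 ± 0.029 for 1RT117O05_A_H03 (SE, n = 14; limma, adjusted p = 0.816 and 0.807). The clone that set PM apart most completely, tcay0025.m.13, thus had a slope within its error of 0.

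Within HI the signs of the same 150 clones were closer to even. The higher list had 43 positive and 32 negative slopes with a median of 0.0044 ± 0.0109. The lower list had 30 positive and 45 negative slopes with a median of -0.0035 ± 0.0123 (n = 10 HI females, jackknife errors over all 28 arrays). Over all clones 50.4% were positive and the median was 0.0003. At an unadjusted p under 0.05 there were 7 positive and 1 negative slopes in the higher list (9.33% and 1.33%). The lower list held 5 positive and 6 negative (6.67% and 8%), against 2.98% positive and 2.69% negative of all clones. Except for the negative slopes of the higher list, these shares exceeded those of all clones. A share above that of all clones at this p was thus not confined to PM. No clone passed the adjusted threshold within HI (0%; lowest adjusted p = 0.831, limma).

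**Figure D5:**
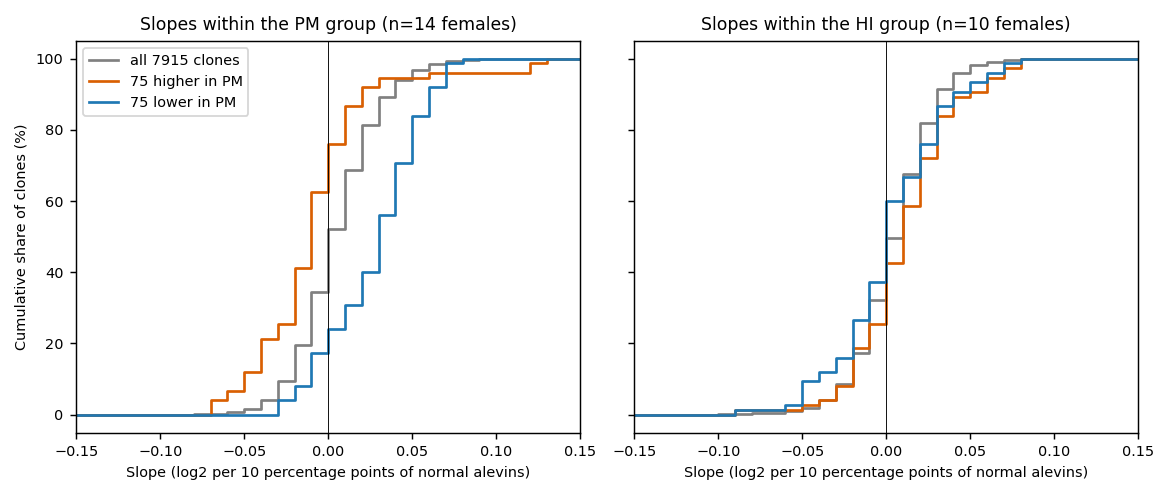
Cumulative share of clones (vertical axis, %) by slope of log2 signal per 10 percentage points of normal alevins (horizontal axis), within PM (left, n = 14 females) and within HI (right, n = 10), for all 7915 clones, the 75 clones higher in PM eggs and the 75 lower. Within PM the lists lay on opposite sides of all clones (medians -0.0148, 0.0251 and -0.0013), and within HI all 3 lay close together (0.0044, -0.0035 and 0.0003).

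Whether slopes differed between PM and HI was fitted over the 24 arrays of both groups. The higher list had 52 negative and 23 positive differences (median -0.0236 ± 0.0174 per 10 points). The lower list had 56 positive and 19 negative (median 0.0281 ± 0.0152, jackknife errors over all 28 arrays), against 50% positive over all clones. At an unadjusted p under 0.05 the higher list held 11 negative and 2 positive differences (14.7% and 2.67%). The lower list held 13 positive and 0 negative (17.3% and 0%), against 7.48% negative and 6.24% positive of all clones. No clone passed after adjustment (0%), the lowest adjusted p being 0.154, so a difference between groups in the relation to egg quality was not established for any clone.

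Among the members the lowest p belonged to tcbk0006.c.09, for which the PM slope minus the HI slope was -0.105 ± 0.022 (SE, 24 arrays; limma, unadjusted p = 5.84e-05, adjusted p = 0.154). Its slope within HI was 0.051 ± 0.020 (SE, n = 10; unadjusted p = 0.0198), of the opposite sign. When HI 5 was left out the difference was -0.112 with an adjusted p of 0.0282, the only member called in any of the alternatives. Opposite signs also occurred in tcay0025.i.19, with slopes of -0.064 in PM and 0.047 in HI (limma, adjusted p of the difference = 0.164), and in tcay0009.g.09, with -0.078 and 0.075 (limma, adjusted p of the difference = 0.188). By contrast, 1RT39A05_A_A03 had slopes of 0.073 in PM and 0.047 in HI, which differed by 0.026 ± 0.027 (SE, 24 arrays).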

How the data were processed

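Eggs of 28 females (4 N, 10 HI and 14 PM) were hybridized as 33P-labelled cDNA to nylon cDNA arrays and read by phosphorimager. Values were deposited as linear intensity per spot: the authors left out spots weakly detected with a vector oligonucleotide, corrected the intensity for the spotted DNA and divided it by the median of the array. How duplicate spots were combined, and what a value of 0 (6.59% of clone values) marks, is stated by no source at hand. Of 9216 rows, 193 were not clones, and 1108 of 9023 clones lacked a value above 0 on some array. The other 7915 were log2-transformed and quantile normalized with limma 3.58.1 in R 4.3.3. The 50 clones of them listed in the tables of the study were then left out. The 75 clones whose PM mean lay farthest above both other means, and the 75 farthest below both, were taken. Slopes on normal alevins were fitted by lmFit and eBayes over the 7915 clones within PM, within HI and as their difference. The threshold was an adjusted p under 0.05 by Benjamini-Hochberg. The fits were also run on simulated data with independent noise for each clone. The members here vary together, so that run is no check of their slopes. A SAM-style statistic with 100 permutations was an alternative, as were the normalization, a filter on dim clones, clones with at least 20 values, group medians, eyed embryos, array width, array weights and leaving out arrays. Figures were drawn with matplotlib.

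The members and lists were chosen with earlier results of these data known. Clones named in the text are the 8 leading members of each list, those at the limit, the 3 with the lowest p for the slope in each direction, and the 2 with the largest and smallest SD in PM; other clones named were picked after their values were seen. Nothing in the labels says that samples of a group are technical repeats, and each is 1 female, so p-values measure the spread between females. The number of arrays limits the precision.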

Additional observations from a re-analysis of the deposited data

Results flagged for a closer look

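Over 72 groups of 4 to 10 females checked, 3 values stood far from the rest of their group; chance flags about 1 in 20, or 3.6 here. In 1RT55B06_D_A03 the female N 3 read -0.98, the nearest N female being at 0.72. In tcbk0058.l.01 the female N 2 read -0.77, the nearest N female being at 0.10. In the median of the lower list HI 5 stood at 0.24, the nearest HI female being at 0.15.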

How the results depend on the processing

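Slopes within PM passed the adjusted threshold for 0 clones with limma and for 3 with the SAM-style statistic, and for 0 to 1 clones when each array was left out (1 without PM 1). Slope differences between PM and HI passed for 0 to 2 clones, and for 0 to 1 member, the upper value without HI 5; with eyed embryos in place of normal alevins 1 clone passed within HI. Of 75 clones in each list, 48 higher and 49 lower were chosen again from values as deposited, and 40 and 41 by group medians. In the lower list 47 were chosen again with arrays scaled by their median absolute deviation, and 44 without N 1 and PM 4. Among clones above the array median, every member that passed this filter, 39 and 43, was chosen again. The filter followed the normalization, so that outcome was fixed in advance. With each array left out, 52 to 71 higher and 44 to 72 lower clones were chosen again. Negative slopes at an unadjusted p under 0.05 in the higher list numbered 14, but 11 to 24 with each array left out (24 without PM 4), 23 without N 1 and PM 4, and 8 with eyed embryos. Positive ones in the lower list numbered 17, but 13 to 25 with each array left out (25 without PM 4), and 9 with array width in the fit. Among clones above the array median, 5 and 5 were left, of 25 negative and 27 positive slopes, over 39 and 43 members; there the median HI slope of the higher list was -0.0069 and its median PM-HI difference 0.0018. Minimum differences of tcbk0042.a.18 (0.54) and 1RT55B06_D_A03 (0.33) ran from -0.0623 and -0.0897 without N 3 to 0.70 and 0.45 without PM 4. Median HI slopes ran from -0.0021 to 0.0106 in the higher and from -0.0092 to 0.0046 in the lower list with each array left out, changing sign without HI 1 in both and without HI 8 in the higher list. No other direction and no other call changed under the alternatives run, apart from those under the block, and causes were not tested. Shares over all clones at an unadjusted p were not computed for the alternatives.

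Replicate numbers did not pair the samples: numbers within a group follow egg quality, and deviations of same-numbered PM and HI samples correlated at -0.23 to 0.22, with 1 of 10 best with its own number. With the replicate number as a block over all arrays, the median slope within PM was 0.0399 in the higher and -0.0208 in the lower list, with 28 negative and 34 positive slopes (2 and 2 at an unadjusted p under 0.05), that of 1RT2H1 was -0.078 (limma, adjusted p = 0.742), the median HI slopes were 0.0289 and -0.0289, and 1 clone passed for the PM-HI difference, whose median in the higher list was -0.0062.

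What limits these results is the number of arrays, above all the 4 N females, 1 of which carries the number of a PM female. HI was sampled in another year. Clones are known by identifier, and members are not independent of each other.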
